A study of Homo sapiens with 32 samples.

Results

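The 42 genes described here act in homologous recombination and in the response to DNA damage. They were chosen by hand, by symbol, from what is known of each gene in recombination, the Fanconi anaemia pathway, the damage checkpoint and neighbouring repair pathways. Earlier results of these data were known when they were chosen. All 42 were found among the 28278 gene symbols of the clone and pair count table and among the 60199 Ensembl genes of the knockdown table, and all 42 were tested in every comparison. By role they were the BRCA group (BRCA1, BARD1, BRCA2, PALB2), the strand exchange cofactors (RAD51AP1, RAD51B, RAD51C, RAD51D, XRCC2, XRCC3, RAD52, RAD54L, RAD54B), end processing enzymes and helicases (RBBP8, MRE11, RAD50, NBN, EXO1, BLM, WRN), checkpoint kinases (ATM, ATR, CHEK1, CHEK2), the Fanconi anaemia group (FANCA, FANCB, FANCC, FANCD2, FANCE, FANCF, FANCG, FANCI, FANCL, FANCM, BRIP1, SLX4) and other repair genes (PARP1, PARP2, TP53BP1, RIF1, POLQ, MSH6). Homologous recombination repairs a break in both DNA strands by copying the intact sister chromatid. Broken ends are first trimmed to single strands, then the BRCA proteins help the strand to find the matching sequence, and helicases and nucleases resolve the joined molecules. Cohesin holds the sisters together, and the checkpoint kinases delay division until the repair is done.

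The study asked what loss of the cohesin subunit STAG2, which some Ewing sarcomas lack, does to gene expression in Ewing sarcoma cell lines. It compared this loss with loss of the paralogue STAG1 and with loss of EZH2 or SUZ12, which are subunits of the chromatin-modifying complex PRC2. RNA sequencing of 32 libraries is used here, from 4 experiments in A673 cells and from 1 pair of libraries each in SK-N-MC and A4573 cells. Experiment 1 of A673 had 2 WT clone libraries (iCas9), 1 parental library (WT) and 2 STAG2 KO libraries (iCas9 with the STAG2 knockout). Experiment 2 had 2 WT clone, 1 parental, 3 STAG2 KO, 3 EZH2 KO and 3 SUZ12 KO libraries. Experiment 3 had 1 WT clone, 1 parental and 3 libraries labelled STAG1 KO. Experiment 4 had 3 libraries of mock transfected cells (siC, genotype WT) and 3 of cells given siRNA against STAG2 (siSTAG2). The SK-N-MC pair was WT (iCas9) and STAG2 KO, and the A4573 pair was WT (iCas9), which lacks STAG2, and STAG2 KI, in which it was restored.

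Each A673 knockout library came from a clone grown from 1 WT clone with an inducible Cas9, so a knockout and a difference between clones cannot be told apart when only 1 clone is seen. The parental cells lack the Cas9 insert, so the control groups mixed 2 kinds of cell. In A4573 the edited library is the one with STAG2, the reverse of the other lines. All samples were bulk cultures, in which fewer cells with a transcript and less transcript in each cell cannot be told apart. The 22 A673 clone libraries held 15734628 to 20663679 counts (median 18957601) and the 4 pair libraries 29322507 to 32261248 (median 31728984). The knockdown libraries held 6852340 to 8184632 reads (median 7737437). Levels below are normalised CPM (counts relative to the size of the library) for the clones and normalised values for the knockdown, whose scales are not comparable. A gene was called when its p-value, adjusted over all genes tested, was under 0.05. Log2 fold changes are given with a standard error (SE). The p-values measure the spread between these clones and cultures, and nothing wider.

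The targeted genes are given first. STAG2 stood at 292, 299 and 282 CPM in the WT clone and parental libraries of experiment 1 and at 43.4 and 188 in the 2 STAG2 KO libraries. In experiment 2 it was at 284, 346 and 247 in the controls, at 69.5, 60.3 and 63.9 in STAG2 KO clones 3, 5 and 2, at 274, 235 and 251 in EZH2 KO and at 253, 223 and 281 in SUZ12 KO. Every STAG2 KO library was below every control, and the library at 188 kept the most transcript. STAG2 fell in STAG2 KO (log2 fold change −1.81, SE 0.32, edgeR adjusted p 0.00424). In experiment 3 STAG2 was at 259 in the parental library, 272 in the WT clone and 352, 296 and 309.6 in the libraries labelled STAG1 KO. Its normalised value in experiment 4 was 1068, 1089.7 and 992 with siC and 179.9, 144 and 153 with siSTAG2. All 3 knocked-down cultures were below all 3 mock cultures, and STAG2 fell by 2.72 on the log2 scale (SE 0.09, limma adjusted p 4.01e-18).

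STAG1 stood at 96.1, 89.1 and 78.3 CPM in the controls and 113 and 142 in STAG2 KO of experiment 1. Experiment 2 had it at 109, 126 and 106 in the controls, 78.6, 87.4 and 89.1 in EZH2 KO, 81.1, 66.0 and 109 in SUZ12 KO and 151, 95.0 and 182 in STAG2 KO clones 3, 5 and 2. In experiment 3 it was at 68.2 in the parental library, 57.0 in the WT clone and 61.9, 15.02 and 32.7 in the libraries labelled STAG1 KO. The library at 61.9 lay between the 2 controls, against its label, and STAG1 was not called lower (log2 fold change −0.80, SE 0.51, edgeR adjusted p 0.376). The study checked clones at the protein level by immunoblot, but this library could not be matched to a clone, and a transcript can remain where the protein is lost. Because of it, the arm is named by its label throughout. With siC STAG1 had normalised values of 297, 318 and 305 and with siSTAG2 328, 388 and 423, so that it was higher in all 3 knocked-down cultures (log2 fold change 0.30, limma adjusted p 0.019).

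EZH2 stood at 144, 148 and 141 CPM in the controls and 201 and 221 in STAG2 KO of experiment 1. Its experiment 2 levels were 165, 169 and 187 in the controls, 45.9, 56.1 and 28.5 in EZH2 KO, 217, 204 and 231 in SUZ12 KO and 195, 174 and 198 in STAG2 KO clones 3, 5 and 2. The EZH2 KO libraries were far below all others and the gene fell there by 1.98 on the log2 scale (SE 0.20, edgeR adjusted p 0.000137). In experiment 3 it was at 121 and 127 in the parental and WT clone libraries and 161, 147 and 129 in the libraries labelled STAG1 KO, and in experiment 4 at values of 1145, 1168 and 1213 with siC and 1233, 1372 and 1277 with siSTAG2. SUZ12 stood at 59.9, 61.7 and 67.5 CPM in the controls and 76.6 and 72.6 in STAG2 KO of experiment 1. In experiment 2 it was at 57.6, 64.3 and 58.7 in the controls, 49.0, 46.3 and 62.8 in EZH2 KO, 15.8, 11.2 and 20.7 in SUZ12 KO and 81.9, 54.3 and 86.8 in STAG2 KO clones 3, 5 and 2. All 3 SUZ12 KO libraries were below all others, and SUZ12 fell there by 1.90 on the log2 scale (SE 0.23, edgeR adjusted p 0.000299). In experiment 3 it was at 61.1 and 65.8 CPM in the controls and 65.3, 56.2 and 56.8 in the libraries labelled STAG1 KO, and in experiment 4 at values of 460.4, 453 and 526 with siC and 490.5, 516 and 487 with siSTAG2.

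In the unreplicated pairs each CPM is a share of counts with an exact 95% interval, which covers counting error only and no difference between cultures. STAG2 was at 192 CPM [187 to 197] in SK-N-MC STAG2 KO and 305 [299 to 311] in SK-N-MC WT (log2 ratio −0.69), so much of the transcript remained. In A4573 it was at 31.9 CPM [29.9 to 33.9] in WT and 85.9 [82.7 to 89.2] in STAG2 KI (log2 ratio −1.39, without over with STAG2). The log2 ratios in the same order for SK-N-MC were 0.57 for STAG1 (109 and 72.2 CPM), −0.58 for EZH2 (256 and 377) and −0.27 for SUZ12 (128 and 152). In A4573 they were 0.84 for STAG1 (126 and 72.1 CPM), 1.44 for EZH2 (112 and 42.4) and 0.10 for SUZ12 (64.0 and 61.4). The line without STAG2 therefore had more STAG1 transcript in both pairs, while EZH2 differed in opposite directions.

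STAG2 KO clone 5 of experiment 2 stood apart from its group. Its mean chi-square per gene was 105 with clone 3 and 131 with clone 2, against 24.02 between those 2. The 2 WT clone libraries of experiment 1 were unusually alike, at 1.31, where the other pairs of 1 group ran from 8.82 to 131. The cause was not tested, and an added alternative counted them as 1. Whole marker lists were summed in each library to check the cell type. The Ewing sarcoma list summed to 1909 to 5330.5 CPM in the count libraries with CCND1 the top gene in all 32 libraries, and CD99 was at 0 in all 26 count libraries though not in the knockdown. The values of this list were 26549 to 27607 with siC and 21416 to 22123 with siSTAG2, which do not overlap, and in A4573 its sum was 1909 CPM without and 3011 with STAG2. Within it edgeR called NR0B1 (log2 fold change 0.78), HOXD13 (1.03) and KDSR (0.62) higher in STAG2 KO, and CCND1 (−0.56) and PRKCB (−0.97) lower. With siSTAG2 limma called NR0B1 alone higher (0.48), and CD99 (−0.75), STEAP1 (−0.63), CCK (−1.24), PRKCB (−0.29) and CCND1 (−0.20) lower. The immune list stayed at 2.50 to 11.6 CPM in the A673 clones, but reached 61.3 in SK-N-MC STAG2 KO against 7.49 in SK-N-MC WT, with PTPRC at 57.9. The fibroblast list, led by COL1A2, summed to 1226 to 2593 CPM in the 6 controls of experiments 1 and 2 and to 567 to 961 in STAG2 KO, and its values were 4903 to 5499.5 with siC and 3070 to 3217 with siSTAG2. It was at 1128 to 1428 CPM in EZH2 KO, 855 to 975 in SUZ12 KO, 3670.4 to 4040.1 in the libraries labelled STAG1 KO against 2179.7 and 2610.5 in their controls, 212 against 764 in SK-N-MC STAG2 KO and WT, and 202 against 369.7 in A4573 without and with STAG2. In STAG2 KO and with siSTAG2 the listed COL1A1, COL1A2, DCN, LUM and PDGFRB were called lower. Their log2 fold changes were −1.55, −2.97, −4.04, −3.36 and −1.23 in STAG2 KO (edgeR) and −1.88, −1.34, −2.62, −3.38 and −1.06 with siSTAG2 (limma). POSTN was also lower in STAG2 KO (−2.50) and COL3A1 with siSTAG2 (−0.41). THY1 alone of the list was called higher, by 0.68 in STAG2 KO and 0.48 with siSTAG2. In the libraries labelled STAG1 KO edgeR called LUM lower (−5.08) and COL1A1 higher (3.27). The epithelial list ran from 423 to 1231 CPM in SUZ12 KO and from 688 to 968 in EZH2 KO, against 348 to 401 in their controls, and was at 205 against 476 in SK-N-MC STAG2 KO and WT. It had values of 2914 to 3212 with siSTAG2 against 3527 to 3929.7 with siC, ran from 99.5 to 376 CPM in STAG2 KO, which overlapped the controls, and the endothelial list reached at most 10.3. What part such cells or states had in the values below was not tested.

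Levels of the 42 genes can be compared with each other only per kilobase of exon. In the controls of experiment 2 the highest medians were PARP1 at 32.7 CPM per kilobase, RAD51AP1 at 31.0 and CHEK1 at 23.5. RAD51D at 1.01, RAD51B at 0.976, FANCL at 0.908 and FANCB at 0.893 were the lowest, so these values spanned more than a factor of 10. The length used was that of all exons annotated for a gene in any transcript, 38.0 kilobases for FANCL and 2.56 for RAD51AP1. Which transcripts the cells made was not tested, so the order of the genes depends on this length too. The libraries do not record the strand, and 31 of the 42 genes share exon bases with another gene, 27 of them with one on the opposite strand, whose reads cannot be told apart. The plot of log2 fold changes by role shows every one of the 42 genes in each knockout, the knockdown and both pairs. Circles in it mark called genes, and they were few in every tested arm, while the pairs were not tested and carry none.

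**Figure D1:**
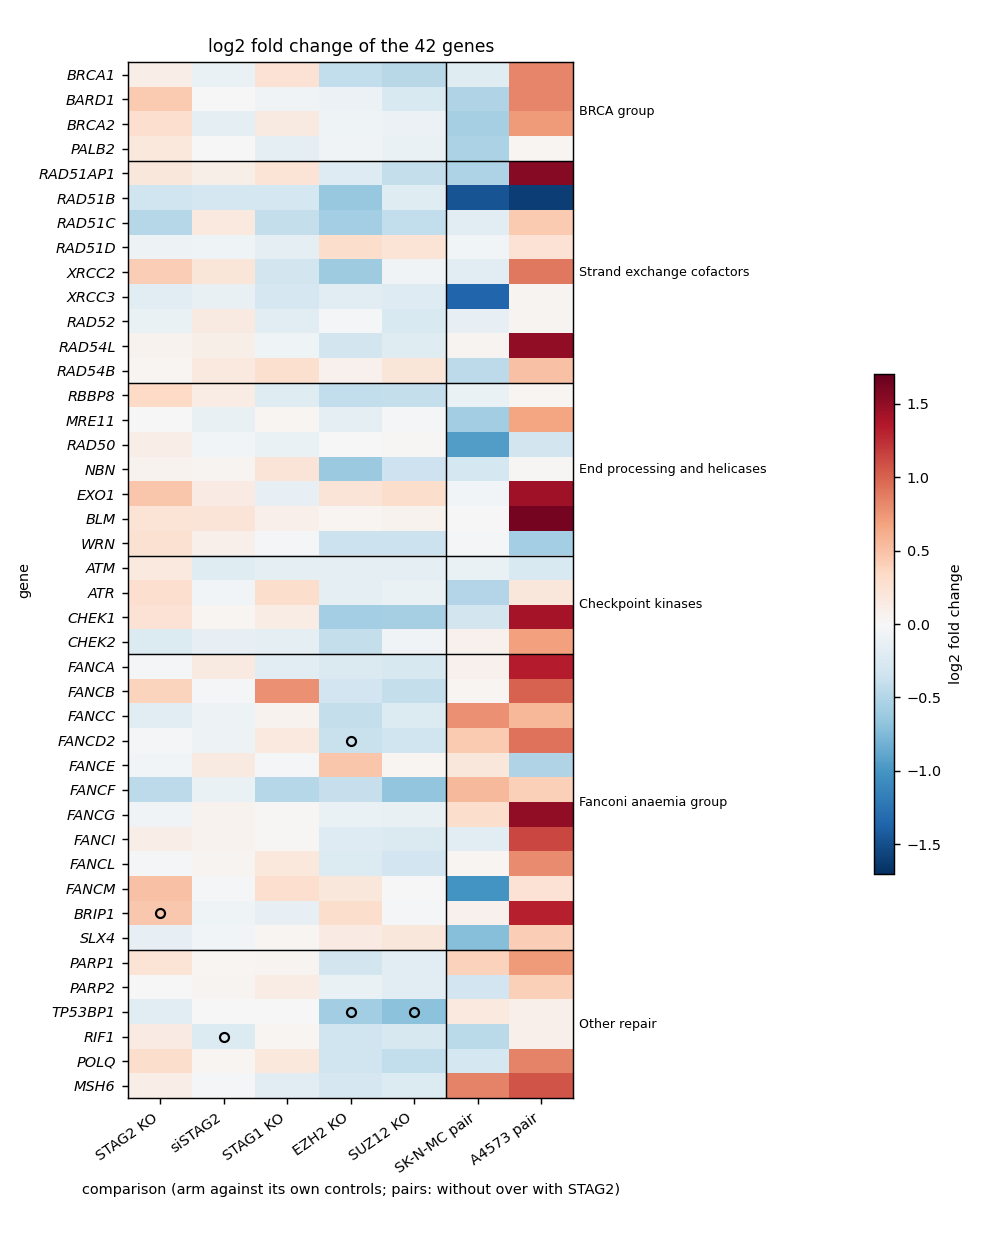
Log2 fold change of the 42 genes, by role, in each arm against its own controls and in the 2 unreplicated pairs (without over with STAG2). Open circles mark genes called at an adjusted p under 0.05.

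Promoters of 38 of the 42 genes were found in the RefSeq table (GRCh38.p14, 250 bases before to 50 after the start); there was none for FANCI, NBN, RAD54B and WRN. The sequences shown are of 3 genes called in a knockout (BRIP1, TP53BP1, FANCD2) and of 3 with some of the largest differences in A4573 (RAD54L, RAD51AP1, BLM). They lie at chr17:61863479-61863778 on the minus strand, chr15:43510591-43510890 on the minus strand, chr3:10026187-10026486, chr1:46247438-46247737, chr12:4538640-4538939 and chr15:90717096-90717395, the last 4 on the plus strand. Capitals mark matches, on either strand, to TTTCCCGC, TTTGGCGC, TTTGAA or CCAAT, letters often found in promoters of genes that cycle with cell division. BRIP1 and BLM carried CCAAT 3 times each, RAD54L carried it at 2 places, and FANCD2 was the only promoter of the 6 with TTTCCCGC.
BRIP1: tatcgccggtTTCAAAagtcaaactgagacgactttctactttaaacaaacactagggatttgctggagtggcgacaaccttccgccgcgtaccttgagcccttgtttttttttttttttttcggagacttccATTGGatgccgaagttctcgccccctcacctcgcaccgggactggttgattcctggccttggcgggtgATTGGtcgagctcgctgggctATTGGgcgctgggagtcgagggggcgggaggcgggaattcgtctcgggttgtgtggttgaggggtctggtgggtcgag
TP53BP1: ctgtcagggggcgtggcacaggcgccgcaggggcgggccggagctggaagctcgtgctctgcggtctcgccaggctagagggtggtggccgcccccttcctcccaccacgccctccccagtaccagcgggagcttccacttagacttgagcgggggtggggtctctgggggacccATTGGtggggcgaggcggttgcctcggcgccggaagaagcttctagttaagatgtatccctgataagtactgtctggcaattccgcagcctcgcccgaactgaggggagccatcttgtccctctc
FANCD2: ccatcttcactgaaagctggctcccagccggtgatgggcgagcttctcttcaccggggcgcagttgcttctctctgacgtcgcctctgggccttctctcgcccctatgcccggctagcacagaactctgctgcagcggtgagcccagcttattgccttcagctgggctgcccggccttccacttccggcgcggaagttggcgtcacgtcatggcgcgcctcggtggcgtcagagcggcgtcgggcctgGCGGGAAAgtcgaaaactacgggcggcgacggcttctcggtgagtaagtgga
RAD54L: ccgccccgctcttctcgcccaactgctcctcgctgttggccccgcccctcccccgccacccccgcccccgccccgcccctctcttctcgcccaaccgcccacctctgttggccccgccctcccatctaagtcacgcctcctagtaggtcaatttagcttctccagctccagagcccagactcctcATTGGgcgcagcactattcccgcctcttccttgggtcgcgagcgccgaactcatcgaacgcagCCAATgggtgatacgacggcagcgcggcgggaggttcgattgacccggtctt
RAD51AP1: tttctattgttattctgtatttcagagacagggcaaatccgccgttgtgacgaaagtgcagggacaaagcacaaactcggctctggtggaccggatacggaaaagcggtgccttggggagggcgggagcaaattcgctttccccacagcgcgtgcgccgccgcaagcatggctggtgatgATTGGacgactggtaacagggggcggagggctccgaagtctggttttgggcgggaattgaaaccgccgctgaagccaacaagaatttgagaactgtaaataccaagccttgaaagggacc
BLM: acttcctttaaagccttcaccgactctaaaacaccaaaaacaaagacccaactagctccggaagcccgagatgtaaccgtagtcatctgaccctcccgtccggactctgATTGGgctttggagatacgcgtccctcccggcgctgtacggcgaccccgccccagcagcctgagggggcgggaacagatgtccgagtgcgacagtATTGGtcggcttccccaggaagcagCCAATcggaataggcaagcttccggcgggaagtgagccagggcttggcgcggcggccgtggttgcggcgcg

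TTTCCCGC was in 10.5% of the 38 promoters (FANCC, FANCD2, MSH6 and XRCC2), in 1.66% of all 27305 promoters and in 26.9% of 26 promoters of S and G2/M phase genes. TTTGGCGC was in 0 of the 38, in 0.659% of all and in 15.4% of the S and G2/M phase promoters. TTTGAA was in 13.2% of the 38, 15.4% of all and 26.9% of the S and G2/M phase promoters, and CCAAT in 42.1% against 35.7% of all and 80.8% of the S and G2/M phase promoters. The repair promoters were thus nearer to all promoters than to those of the cell cycle genes for the letters CCAAT. For TTTCCCGC their share, which rests on the 4 genes named, was above that of all promoters and below that of the cell cycle genes. A match describes the letters only.

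In STAG2 KO 1 of the 42 genes was called, a smaller share than of all genes, and small changes may have been missed. The knockout changed 12.4% of all 13574 genes tested (1687, with 905 higher and 782 lower), and 1 of the 42, BRIP1, which was higher. The median log2 fold change of the 42 was 0.11 beside 0.04 over all genes, 26 were positive and 16 negative, and they ran from −0.48 to 0.50. With each library left out that median ran from 0.03 to 0.14. At an unadjusted p under 0.05 there were 10 of the 42 and 3607 of all 13574, and DESeq2 called 6 (BARD1, RBBP8, WRN, FANCF, FANCM and BRIP1) among 2488. By these 2 counts the 42 were close to all genes.

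BRIP1 encodes a helicase that binds BRCA1 and works with the Fanconi anaemia proteins at crosslinks. Its level was 34.9, 37.6 and 51.4 CPM in the controls and 52.1 and 55.9 in STAG2 KO of experiment 1. Experiment 2 had it at 39.6, 43.7 and 44.5 in the controls, 58.2, 72.2 and 55.9 in STAG2 KO clones 3, 5 and 2, 54.0, 43.6 and 57.2 in EZH2 KO and 39.8, 43.2 and 39.7 in SUZ12 KO. All 5 STAG2 KO libraries were above all 6 controls, the closest being 52.1 and the parental library at 51.4. BRIP1 rose by 0.46 on the log2 scale (SE 0.12, edgeR adjusted p 0.0324). In experiment 3 BRIP1 was at 56.6 and 65.4 in the parental and WT clone libraries and 63.6, 50.6 and 54.2 in the libraries labelled STAG1 KO, so those controls without a knockout reached the STAG2 KO range. In experiment 4 its normalised values were 153, 158 and 176 with siC and 169.7, 136 and 156 with siSTAG2, which overlapped.

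The BRIP1 call rested on most of the libraries. Leaving out any 1 of 8 of the 11 libraries put its edgeR adjusted p above 0.05, while its log2 fold change stayed between 0.38 and 0.54. These were the WT clone libraries of experiment 1 at 34.9 CPM (adjusted p 0.0733 in edgeR without it) and 37.6 (0.0722), the STAG2 KO library of experiment 1 at 55.9 (0.0626), WT clones 1 (0.109) and 2 (0.0886) of experiment 2 at 39.6 and 43.7, its parental library at 44.5 (0.0673), and STAG2 KO clones 3 (0.0693) and 2 (0.0519) at 58.2 and 55.9. Over the left-out libraries the edgeR adjusted p ran from 0.00939 to 0.109. Experiment 1 alone gave a log2 fold change of 0.35 and experiment 2 alone 0.53, with edgeR adjusted p of 0.196 and 0.0967. BRIP1 was thus higher in every fit and called in only some of them. With the 2 WT clone libraries of experiment 1, which were unusually alike, summed as 1, 0 of the 42 were called, so the BRIP1 call was lost.

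**Figure D2:**
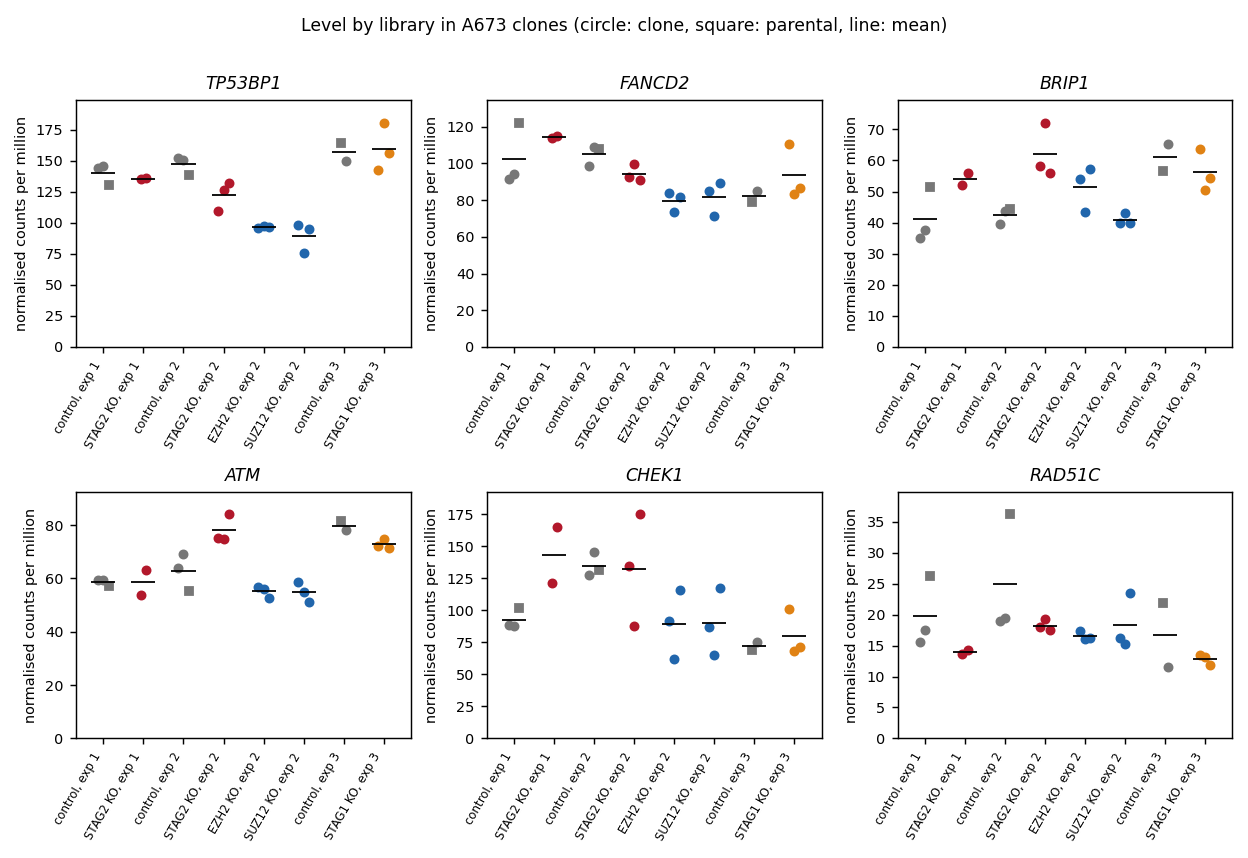
Normalised CPM of TP53BP1, FANCD2, BRIP1, ATM, CHEK1 and RAD51C in each A673 clone library by group. Circles are clones, squares parental cells and lines group means, with axes from 0.

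The plot of levels by library shows these values for BRIP1 beside those of 5 other genes. By role, medians on the log2 scale against controls were 0.23 for the BRCA group, −0.08 for strand exchange cofactors, 0.23 for end processing, 0.21 for the checkpoint kinases, −0.03 for the Fanconi anaemia group and 0.13 for other repair genes. All of these medians were small. The genes nearest to a call were FANCM, a DNA translocase at stalled forks (log2 fold change 0.50, edgeR adjusted p 0.0551), BARD1, the partner of BRCA1 (0.44, 0.0578), and RBBP8, which starts end trimming (0.33, 0.0624). WRN (log2 fold change 0.26), XRCC2 (0.42), EXO1 (0.47) and FANCF (−0.44) had edgeR adjusted p of 0.0778, 0.0807, 0.12 and 0.0791. FANCF was the only 1 of these with a negative log2 fold change, and its levels overlapped those of the controls. RAD51C had the lowest log2 fold change at −0.48 (edgeR adjusted p 0.149).

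Without STAG2 KO clone 5, whose BRIP1 level was 72.2 CPM, 9 of the 42 were called (BARD1, XRCC2, RBBP8, EXO1, ATR, CHEK1, FANCF, FANCM and BRIP1) and 4048 of 13670 genes in all. The number called, of the 42 as of all genes, thus turned on the clone that stood apart. Without the parental library of experiment 1, at 51.4 for BRIP1, 3 were called (BARD1, FANCM and BRIP1), and without clone 2, at 55.9, FANCF alone. Experiment 1 alone called 5 (XRCC2, ATR, CHEK1, PARP1 and MSH6) among 3663 genes, and experiment 2 alone called 0 by edgeR among 494 genes, with 7 at an unadjusted p under 0.05.

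In EZH2 KO and SUZ12 KO most of the 42 genes had small negative log2 fold changes, few were called, and TP53BP1 was the clearest in both. EZH2 KO changed 15.7% of 15130 genes (2377) and 2 of the 42, TP53BP1 and FANCD2, both lower. SUZ12 KO changed 20.6% (3112) and 1 of the 42, TP53BP1, again lower. The median log2 fold change of the 42 was −0.22 in each, beside 0.04 and 0.01 over all genes, with 33 and 35 of the 42 negative. With each library left out the medians ran from −0.33 to −0.14 and from −0.28 to −0.12, so their size depended on single clones. Both arms were set against the same 3 controls, so their values are not independent. At an unadjusted p under 0.05 there were 8 in EZH2 KO and 6 in SUZ12 KO, beside 30.2% and 34.2% of all genes, and DESeq2 called 3 (with FANCC) among 3310 and 2 (with FANCD2) among 3972.

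TP53BP1 encodes 53BP1, which shields broken ends and favours their direct joining over recombination. Its experiment 2 levels were 152, 151 and 139 CPM in the controls, 96.1, 97.5 and 96.8 in EZH2 KO, 98.6, 75.4 and 94.8 in SUZ12 KO and 109.9, 126 and 132 in STAG2 KO clones 3, 5 and 2. Every EZH2 KO and SUZ12 KO library was below every control, and below every STAG2 KO library too. TP53BP1 fell by 0.59 on the log2 scale in EZH2 KO (SE 0.12, edgeR adjusted p 0.00842) and by 0.70 in SUZ12 KO (SE 0.12, edgeR adjusted p 0.00239). With each library left out in turn it stayed called, at log2 fold changes of −0.65 to −0.58 and −0.78 to −0.59. In experiment 1 it was at 144, 146 and 131 in the controls and 135 and 136 in STAG2 KO, and in experiment 3 at 165 and 149.6 in the controls and 142, 181 and 156 in the libraries labelled STAG1 KO. Those groups overlapped, the STAG2 KO clones of experiment 2 were below their controls, and the log2 fold change was −0.18 in STAG2 KO (edgeR adjusted p 0.214). With siC it had normalised values of 581, 605 and 541 and with siSTAG2 551, 595 and 567, which overlapped as well. Of its exon bases, 28.8% are shared with TUBGCP4 on the other strand, which had log2 fold changes of −0.03 in EZH2 KO and 0.14 in SUZ12 KO.

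FANCD2 encodes the protein that is marked with ubiquitin when a crosslink stalls a fork. In experiment 2 it was at 98.3, 109 and 108 CPM in the controls, 83.9, 73.3 and 81.6 in EZH2 KO, 84.9, 71.4 and 89.6 in SUZ12 KO and 92.6, 99.7 and 90.7 in STAG2 KO clones 3, 5 and 2. All EZH2 KO and SUZ12 KO libraries were below all controls. FANCD2 fell by 0.38 on the log2 scale in EZH2 KO (SE 0.12, edgeR adjusted p 0.045), while in SUZ12 KO the log2 fold change of −0.34 was not called (SE 0.12, edgeR adjusted p 0.0586). Leaving out any 1 of the 6 libraries of that comparison put its edgeR adjusted p between 0.0658 and 0.146, so its call needed all of them. In experiment 1 it was at 91.7, 94.0 and 122 in the controls and 114 and 115 in STAG2 KO, and in experiment 3 at 79.2 and 84.9 in the controls and 111, 83.2 and 86.7 in the libraries labelled STAG1 KO. With siC it had normalised values of 664, 657 and 717 and with siSTAG2 596, 697 and 639. These groups overlapped, and FANCD2 was called in none of them.

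By role the medians in EZH2 KO ran from −0.33 for other repair genes and −0.28 for the kinases to −0.09 for the BRCA group. In SUZ12 KO they ran from −0.26 for other repair genes and −0.24 for the Fanconi anaemia group to −0.02 for end processing. No role stood apart from the rest. Without SUZ12 KO 3, at 94.8 CPM for TP53BP1, SUZ12 KO called 3 of the 42 (BRCA1, FANCD2 and TP53BP1) among 3238 of 15506 genes. Fitting the 2 groups alone called 4 in EZH2 KO (XRCC2, FANCC, FANCD2 and TP53BP1) among 3429 of 14262 genes and 2 in SUZ12 KO (TP53BP1 and POLQ) among 4378 of 14397. Set directly against each other, EZH2 KO and SUZ12 KO had no called difference at the 42 genes. There edgeR called 0.00661% of all genes (1 of 15130, EZH2 itself) and 0 of the 42, with 2 at an unadjusted p under 0.05 and 0 by DESeq2. The 42 had a median log2 difference of 0.00, with 21 on each side.

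STAG2 KO set directly against the 2 PRC2 knockouts of experiment 2 gave the largest number of called repair genes. It changed 29.7% of 15130 genes (4495) and 8 of the 42, all 8 higher in STAG2 KO, where 13.8% of all genes (2085) were higher. The median log2 difference of the 42 was 0.28 beside −0.01 over all genes, and 33 were positive. At an unadjusted p under 0.05 there were 18 of the 42 and 6194 of all genes, and DESeq2 called 11, with BRCA1, MRE11 and RAD50 added, among 5326. The share called was below that of all genes, while the direction was the same for all 8. This comparison uses no control and says nothing of which side moved.

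WRN, a helicase and nuclease, was at 67.3, 74.2 and 72.1 CPM in STAG2 KO clones 3, 5 and 2, at 46.6, 33.5 and 46.9 in EZH2 KO and at 42.4, 37.7 and 47.1 in SUZ12 KO, with controls at 51.9, 58.4 and 55.6. BARD1 was at 32.8, 29.3 and 36.0 in STAG2 KO, 19.6, 17.5 and 24.3 in EZH2 KO and 21.4, 14.3 and 19.4 in SUZ12 KO, with controls at 21.1, 22.8 and 22.7. For both genes every STAG2 KO library was above every PRC2 knockout library and above the controls. The log2 difference was 0.73 for WRN (edgeR adjusted p 0.00124) and 0.73 for BARD1 (edgeR adjusted p 0.00443). ATM, the kinase that answers broken ends, was at 75.2, 74.7 and 84.1 in STAG2 KO and 51.1 to 58.6 over the 6 PRC2 knockout libraries, which do not overlap, with a log2 difference of 0.48 (edgeR adjusted p 0.00403). The 5 others were RBBP8 at 0.72, NBN, a subunit of the complex that binds broken ends, at 0.68, XRCC2, a strand exchange cofactor, at 0.63, BRIP1 at 0.41 and TP53BP1 at 0.38 on the log2 scale. Their edgeR adjusted p were 0.0136, 0.0345, 0.0389, 0.0223 and 0.0192 in that order. TP53BP1 was therefore higher than in the PRC2 knockouts though below its controls in level.

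How many of the 42 were called turned most on STAG2 KO clones 2 and 5, but other libraries mattered too. Without clone 3 there were 8 of the 42 among 3382 of 15540 genes. Without SUZ12 KO 3 there were 11 among 4649 of 15506. RBBP8 was at 122, 107 and 154 CPM in STAG2 KO clones 3, 5 and 2, NBN at 49.99, 67.7 and 91.99 and XRCC2 at 53.9, 32.8 and 56.6. Clone 2 was the highest for all 3. Without it, 4 of the 42 remained (BARD1, WRN, ATM and BRIP1) among 3139 of 15528 genes. Without clone 5, 17 were called among 6601 of 15448 genes, and BRIP1, at 72.2 in that clone, was not (edgeR adjusted p 0.0718, against 0.0203 to 0.0718 over all left-out libraries). XRCC2 was also lost without STAG2 KO 3, EZH2 KO 2 or 3 (22.4 and 21.0) or SUZ12 KO 2 (25.7), and NBN without SUZ12 KO 1 or 2 (41.8 and 41.3). WRN, ATM and BARD1 were called whichever library was left out.

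None of the 42 genes was called in the libraries labelled STAG1 KO. There edgeR called 5.27% of 14373 genes (757) and 0 of the 42, with 3 at an unadjusted p under 0.05 against 3578 of all genes, and 2 by DESeq2, FANCB and FANCF, among 1914. The median log2 fold change of the 42 was 0.01 beside −0.00 over all genes, 22 were positive and 20 negative, and the ends were 0.77 for FANCB and −0.48 for FANCF, both subunits of the Fanconi anaemia core complex (edgeR adjusted p 0.09 and 0.074). With either of the 2 controls left out, 0 genes were called in all. Without the library with STAG1 at 61.9 CPM, 1310 genes were called, still with 0 of the 42 by edgeR, and 8 of the 42 were at an unadjusted p under 0.05. Without the library at 15.02 or at 32.7 the total was 264 or 326.

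The STAG2 KO effect minus that of the libraries labelled STAG1 KO differed by edgeR at 6.11% of 14696 genes (898) and at 0 of the 42, with 3 at an unadjusted p under 0.05 and 0 by DESeq2. The 42 had a median log2 difference of 0.04, and the log2 difference was 0.68 for XRCC2 (edgeR adjusted p 0.205) and 0.56 for BRIP1 (edgeR adjusted p 0.138). Without the parental library of experiment 1, at 51.4 CPM for BRIP1, that gene was called, and without STAG2 KO clone 5, at 32.8 for XRCC2, XRCC2 was. No repair gene was thus shown to respond differently to the 2 paralogues with all libraries in.

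WT clone and parental cells differed at 1 of the 42 genes, about the share of all genes that differed. Between them edgeR called 2.72% of 14167 genes (385), and of the 42 RAD51C (2.38%), with a median log2 fold change of −0.08 beside −0.01 over all genes. There were 3 of the 42 at an unadjusted p under 0.05, against 2320 of all genes, and DESeq2 called 1 among 638. RAD51C, a strand exchange cofactor, was at 15.6 and 17.5 CPM in the WT clone libraries of experiment 1, 18.9 and 19.5 in those of experiment 2 and 11.6 in that of experiment 3. In the parental libraries it was at 26.3, 36.3 and 22.0. All WT clone libraries were below all parental ones, and RAD51C was lower by edgeR (log2 fold change −0.83, SE 0.10, adjusted p 0.00387; −0.92 to −0.77 with each library left out). The knockouts, which come from such a clone, were at 13.6 and 14.3 in STAG2 KO of experiment 1, 18.0, 19.3 and 17.5 in that of experiment 2, 17.3, 16.1 and 16.2 in EZH2 KO, 16.2, 15.3 and 23.5 in SUZ12 KO and 13.5, 13.2 and 11.9 in the libraries labelled STAG1 KO. Its low values there cannot be told apart from the difference between clone and parental cells. Without the parental or the WT clone library of experiment 3, at 22.0 and 11.6, 4 of the 42 were called (RAD51C, RAD54L, FANCA and SLX4) among 953 and 924 genes, and 13 and 12 were at an unadjusted p under 0.05.

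With knockdown of STAG2 in experiment 4 few of the 42 genes were called and their median stayed near 0. It changed 20.5% of 12060 genes (2476) and 1 of the 42, RIF1, which was lower. The median log2 fold change of the 42 was 0.00 beside 0.01 over all genes, with 21 on each side and 2 at an unadjusted p under 0.05 against 3882 of all 12060. RIF1 encodes a partner of 53BP1 that also times replication. Its normalised value was 2001.6, 1821 and 1889.5 with siC and 1629, 1587.6 and 1625.8 with siSTAG2, so all 3 knocked-down cultures were below all 3 mock cultures. RIF1 fell by 0.24 on the log2 scale (SE 0.06, limma adjusted p 0.00422), with −0.27 to −0.20 when each library was left out. Without siC 2 there were 4 called (XRCC2, ATM, FANCA and RIF1) among 2533 of 12047 genes and without siSTAG2 1 there were 2 (BLM and RIF1) among 2059 of 12081, where RIF1 stood at 1889.5 and 1587.6.

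In the clones RIF1 was at 179, 185 and 239.7 CPM in the controls of experiment 1 and 213 and 257 in STAG2 KO. Experiment 2 had it at 218, 256 and 221 in the controls, 205, 138 and 199 in EZH2 KO, 202, 160.3 and 206 in SUZ12 KO and 255, 177 and 316 in STAG2 KO clones 3, 5 and 2. All PRC2 knockout libraries were below those controls, but the spread was wide and the log2 fold changes of −0.34 and −0.28 were not called (edgeR adjusted p 0.294 and 0.377). In experiment 3 RIF1 was at 219.8 and 224 in the controls and 258, 213 and 218 in the libraries labelled STAG1 KO. Its log2 fold change was 0.14 in STAG2 KO (edgeR adjusted p 0.598). The lower value with siSTAG2 was thus not seen in STAG2 KO as a group, though clone 5 was below the controls of its experiment. The knockout and the knockdown of STAG2 share no controls, and across the 42 genes their log2 fold changes had the same sign at 25, with a correlation of 0.196, genes not being independent replicates. The largest absolute change was 0.50 in the knockout and 0.30 in the knockdown.

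Of the genes whose values are given whatever they were, BRCA1 and BRCA2 promote strand exchange and were called by edgeR or limma in no replicated comparison. BRCA1 was at 41.7, 44.02 and 42.6 CPM in the controls of experiment 1 and 45.9 and 57.3 in STAG2 KO. Its experiment 2 levels were 49.4, 59.3 and 43.2 in the controls, 36.9, 35.2 and 39.9 in EZH2 KO, 35.5, 27.7 and 45.0 in SUZ12 KO and 49.2, 41.7 and 62.0 in STAG2 KO clones 3, 5 and 2. All EZH2 KO libraries were below those controls and the STAG2 KO libraries of experiment 1 above theirs, while the other groups of experiment 2 overlapped. In experiment 3 BRCA1 was at 35.8 and 42.6 in the controls and 54.1, 43.9 and 43.2 in the libraries labelled STAG1 KO, all 3 higher, and with siC it had normalised values of 318, 279 and 316 against 251, 311 and 286 with siSTAG2. Its log2 fold changes were 0.11, −0.42, −0.47 and 0.24 in STAG2 KO, EZH2 KO, SUZ12 KO and the libraries labelled STAG1 KO (edgeR adjusted p 0.652, 0.171, 0.113 and 0.34) and −0.11 with siSTAG2 (limma adjusted p 0.457). None was called.

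BRCA2 was at 33.7, 33.7 and 53.04 CPM in the controls of experiment 1 and 48.2 and 52.6 in STAG2 KO. In experiment 2 it was at 36.6, 42.6 and 45.1 in the controls, 38.2, 33.9 and 44.5 in EZH2 KO, 36.1, 33.8 and 44.2 in SUZ12 KO and 49.0, 34.96 and 66.6 in STAG2 KO clones 3, 5 and 2. Every group of knockouts overlapped its controls, with clone 2 the highest and clone 5 among the lowest. In experiment 3 BRCA2 was at 37.9 and 42.8 in the controls and 59.0, 38.3 and 38.6 in the libraries labelled STAG1 KO, and with siC it had normalised values of 236, 211 and 217 against 209, 202 and 185 with siSTAG2. The siSTAG2 values were all below those with siC. Its log2 fold changes were 0.28, −0.07, −0.10 and 0.15 in the order used for BRCA1 (edgeR adjusted p 0.325, 0.834, 0.75 and 0.707) and −0.16 with siSTAG2 (limma adjusted p 0.284), and none was called.

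ATM was at 59.6, 59.3 and 57.1 CPM in the controls of experiment 1 and 53.7 and 63.3 in STAG2 KO. Experiment 2 had it at 63.8, 69.2 and 55.2 in the controls, 56.8, 55.9 and 52.9 in EZH2 KO, 58.6, 55.0 and 51.1 in SUZ12 KO and 75.2, 74.7 and 84.1 in STAG2 KO clones 3, 5 and 2. The STAG2 KO libraries of experiment 2 were above all their controls and those of experiment 1 lay on both sides. In experiment 3 ATM was at 81.6 and 78.1 in the controls and 72.3, 75.0 and 71.4 in the libraries labelled STAG1 KO, all 3 lower, and with siC it had normalised values of 168, 147 and 99.4 against 133, 107 and 114. Its log2 fold changes were 0.16, −0.17, −0.17 and −0.15 in the same order (edgeR adjusted p 0.369, 0.362, 0.325 and 0.299) and −0.20 with siSTAG2 (limma adjusted p 0.393). With all libraries in, ATM was called against no controls.

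ATR, the kinase that answers stalled forks, was at 51.2, 50.4 and 56.0 CPM in the controls of experiment 1 and 73.3 and 72.4 in STAG2 KO. Its experiment 2 levels were 56.5, 63.1 and 51.6 in the controls, 53.9, 46.7 and 51.7 in EZH2 KO, 54.9, 43.6 and 57.7 in SUZ12 KO and 65.2, 51.9 and 74.7 in STAG2 KO clones 3, 5 and 2. All STAG2 KO libraries but clone 5 were above all controls. In experiment 3 ATR was at 47.7 and 47.0 in the controls and 63.7, 57.6 and 56.0 in the libraries labelled STAG1 KO, all 3 higher, and with siC it had normalised values of 116, 95.8 and 95.5 against 108, 101 and 87.9. Its log2 fold changes were 0.29, −0.15, −0.11 and 0.30 in the same order (edgeR adjusted p 0.117, 0.537, 0.635 and 0.119) and −0.05 with siSTAG2 (limma adjusted p 0.847). Without clone 5, at 51.9, ATR was called in STAG2 KO (log2 fold change 0.36, edgeR adjusted p 0.0127), and it was called in experiment 1 alone (0.43, 0.0302).

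CHEK1, the kinase that acts after ATR, was at 88.8, 87.7 and 102 CPM in the controls of experiment 1 and 121 and 165 in STAG2 KO. In experiment 2 it was at 127, 146 and 132 in the controls, 91.3, 61.6 and 116 in EZH2 KO, 86.8, 64.9 and 117 in SUZ12 KO and 135, 87.4 and 175 in STAG2 KO clones 3, 5 and 2. All PRC2 knockout libraries were below those controls with a wide spread, and the STAG2 KO clones lay on both sides. In experiment 3 CHEK1 was at 69.1 and 75.2 in the controls and 101, 68.4 and 70.9 in the libraries labelled STAG1 KO, and with siC it had normalised values of 376, 392 and 362 against 395, 364 and 399.9. Its log2 fold changes were 0.25, −0.57, −0.57 and 0.13 in the same order (edgeR adjusted p 0.419, 0.195, 0.177 and 0.694) and 0.04 with siSTAG2 (limma adjusted p 0.812), and none was called. Without clone 5, at 87.4, CHEK1 was called in STAG2 KO (log2 fold change 0.39, edgeR adjusted p 0.0387), and in experiment 1 alone (0.59, 0.0422).

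PARP1, which senses nicks and breaks, was at 359.8, 356 and 510.4 CPM in the controls of experiment 1 and 620.2 and 705 in STAG2 KO. Experiment 2 had it at 610.1, 601 and 601 in the controls, 479, 389 and 568 in EZH2 KO, 551, 448 and 585 in SUZ12 KO and 666, 422 and 577 in STAG2 KO clones 3, 5 and 2. STAG2 KO was above the controls in experiment 1 and overlapped them in experiment 2, and both PRC2 knockouts were below. In experiment 3 PARP1 was at 345 and 343 in the controls and 431, 329 and 323 in the libraries labelled STAG1 KO, and with siC it had normalised values of 2184, 2334 and 2051 against 2041, 2371 and 2343. Its log2 fold changes were 0.23, −0.32, −0.18 and 0.05 in the same order (edgeR adjusted p 0.449, 0.269, 0.528 and 0.853) and 0.04 with siSTAG2 (limma adjusted p 0.731), so none was called, while experiment 1 alone called it in STAG2 KO (0.66, edgeR adjusted p 0.0498).

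The 2 pairs differed from each other. In SK-N-MC 37.4% of 16413 genes were past 1.5-fold, 17.3% higher and 20.1% lower, and of the 42 there were 8, with 2 higher and 6 lower in STAG2 KO. In A4573 the share was 41.8% of 16124 genes, 17.0% higher and 24.8% lower without STAG2, and of the 42 there were 22, with 21 higher and 1 lower. The median log2 ratio of the 42 was −0.16 in SK-N-MC and 0.62 in A4573, beside −0.03 and −0.04 over all genes. With 1 library on each side neither pair could be tested. The plot of log2 ratios in the pairs shows most genes to the right in A4573 and near 0 in SK-N-MC.

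**Figure D3:**
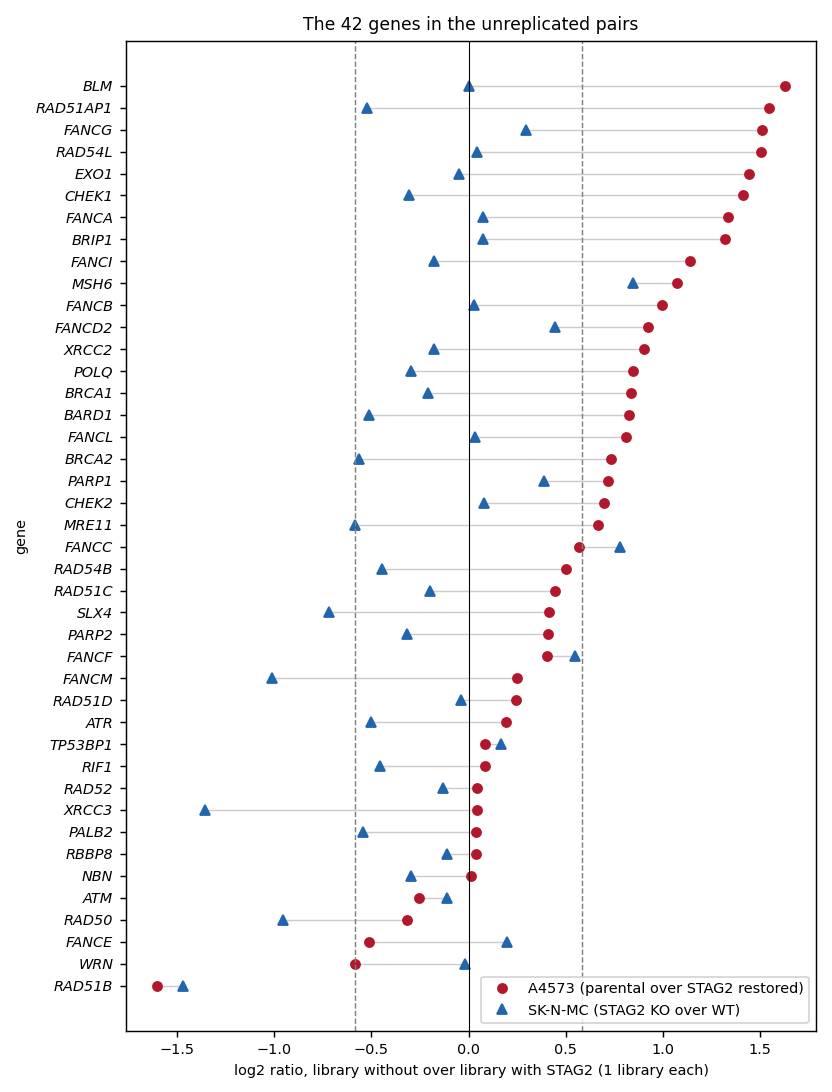
Log2 ratio of CPM without over with STAG2 for the 42 genes in the A4573 pair (circles) and the SK-N-MC pair (triangles). Dashed lines mark 1.5-fold, and each pair is 1 library against 1.

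In SK-N-MC the lowest was RAD51B, a strand exchange cofactor, at 4.30 CPM [3.58 to 5.12] in STAG2 KO and 11.8 [10.6 to 13.1] in WT (log2 ratio −1.47). XRCC3, of the same family, was at 49.4 [46.9 to 52.0] and 124 [120.5 to 128] CPM (log2 ratio −1.35), though 76.7% of its exon bases are shared with KLC1 on the other strand, at −0.33. FANCM was at 16.5 and 32.8 CPM (log2 ratio −1.01). These 3 were all lower without STAG2, as were RAD50 at 69.8 and 133 CPM (−0.95), SLX4, a scaffold for nucleases, at 11.1 and 18.0 (−0.72) and MRE11 at 38.8 and 57.4 (−0.59 on the log2 scale). MRE11 was barely past 1.5-fold and no longer so with library size alone or a prior count of 10. The 2 higher were MSH6, of mismatch repair, at 273 and 149.6 CPM (log2 ratio 0.84) and FANCC at 40.9 and 23.4 (0.78). RAD50 and MRE11 form the complex that binds broken ends together with NBN, and both were on the lower side. Within 1.5-fold in SK-N-MC were BRCA1 at a log2 ratio of −0.21 (63.7 and 72.4 CPM), BRCA2 at −0.57 (15.3 and 22.4), ATM at −0.11 (21.4 and 22.7), ATR at −0.50 (30.9 and 43.1) and CHEK1 at −0.31 (42.02 and 51.1). So were PARP1 at 0.39 on the log2 scale (788 and 593 CPM), BRIP1 at 0.07 (49.9 and 46.6), TP53BP1 at 0.17 (163 and 142), FANCD2 at 0.44 (91.6 and 66.2) and RIF1 at −0.45 (121 and 164). The genes called against controls in A673 by edgeR or limma, with all libraries in, were thus all within 1.5-fold here. Of those called there by DESeq2, FANCM and FANCC were past it and the others were not. FANCM was called there in STAG2 KO, where its edgeR log2 fold change was 0.50, opposite in sign to its ratio here. FANCC was called there in EZH2 KO and not in STAG2 KO.

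In A4573 the highest log2 ratios without over with STAG2 were those of BLM, a helicase that resolves joined molecules (1.63), RAD51AP1, which aids strand exchange (1.54), FANCG (1.51), RAD54L, a motor protein (1.505), and EXO1, which trims ends (1.44). BLM was at 72.3 CPM [69.4 to 75.3] without and 24.04 [22.4 to 25.8] with STAG2, RAD51AP1 at 69.7 and 24.5, FANCG at 31.4 and 11.3, RAD54L at 77.7 and 28.1 and EXO1 at 75.8 and 28.7. All 5 were thus more than 2-fold higher in the library without STAG2. Of the kinases, CHEK1 was at 97.5 and 37.7 CPM (log2 ratio 1.41) and CHEK2 at 43.4 and 27.5 (0.69), while ATM at 30.5 and 37.5 (−0.26) and ATR at 60.2 and 54.3 (0.19) were within 1.5-fold. In the Fanconi anaemia group the log2 ratios were 1.33 for FANCA (132 and 53.7 CPM), 1.32 for BRIP1 (31.0 and 12.7), 1.14 for FANCI (170.2 and 79.5), 0.996 for FANCB (12.1 and 6.20), 0.92 for FANCD2 (154 and 83.5) and 0.81 for FANCL (51.3 and 30.1). That group had 7 of its 12 genes past 1.5-fold, all higher, where 17.0% of all genes were higher past it.

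In the BRCA group BRCA1 was at 62.1 CPM [59.4 to 64.9] without and 35.7 [33.7 to 37.9] with STAG2 (log2 ratio 0.84), BARD1 at 18.7 and 10.8 (0.83) and BRCA2 at 26.0 [24.3 to 27.9] and 16.1 [14.7 to 17.6] (0.73). XRCC2 was at 41.6 and 22.9 CPM (log2 ratio 0.90), POLQ, a polymerase of end joining, at 39.3 and 22.4 (0.85), MSH6 at 258 and 126 (1.07), PARP1 at 778 and 486 (0.72) and MRE11 at 113 and 73.1 (0.67). The only gene lower by more than 1.5-fold was RAD51B, at 2.57 CPM [2.05 to 3.19] and 8.15 [7.19 to 9.21] (log2 ratio −1.60). TP53BP1 at 95.4 and 92.4 CPM (log2 ratio 0.09) and RIF1 at 168 and 163 (0.08) stayed within 1.5-fold. Past 1.5-fold the same way in both pairs were 2 genes, RAD51B lower and MSH6 higher without STAG2, and 1, MRE11, was past it in opposite directions. In A4573 21 of the 42 were thus higher past 1.5-fold without STAG2, 20 were within it and 5 had negative log2 ratios, in 1 library against 1, and what else differed between the 2 cultures was not tested.

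The S and G2/M phase genes were looked at because many repair genes cycle with division. Of 30 such genes edgeR called 0 in STAG2 KO, with 0 at an unadjusted p under 0.05 and a median log2 fold change of −0.04. In EZH2 KO 0 were called (3 at an unadjusted p under 0.05) and in SUZ12 KO 1, MCM7 (log2 fold change −0.60, edgeR adjusted p 0.0364), with medians of −0.26 and −0.27, close to the −0.22 of the 42 repair genes. With siSTAG2 6 of the 30 were called, close to the 20.5% of all genes, and all 6 were lower, as were 1325 of the 2476 genes called in all, led by BUB1B (−0.26), TOP2A (−0.22) and MCM6 (−0.21) at limma adjusted p of 0.00687, 0.00823 and 0.0188. In A4573 29 of the 30 were past 1.5-fold and higher, beside 17.0% of all genes, led by RRM2 at 3.03, CCNE2 at 2.62 and MKI67 at 2.61. Their median log2 ratio was 1.65 beside 0.62 for the 42. SK-N-MC had 3 lower, beside 20.1% of all genes, MKI67 at −0.62, RRM2 at −0.60 and AURKB at −0.59 on the log2 scale. By median, repair and cell cycle genes thus lay on the same side of 0 in A4573, SK-N-MC and the PRC2 knockouts but not in STAG2 KO, and the part of the cell cycle in this was not tested.

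**Figure D4:**
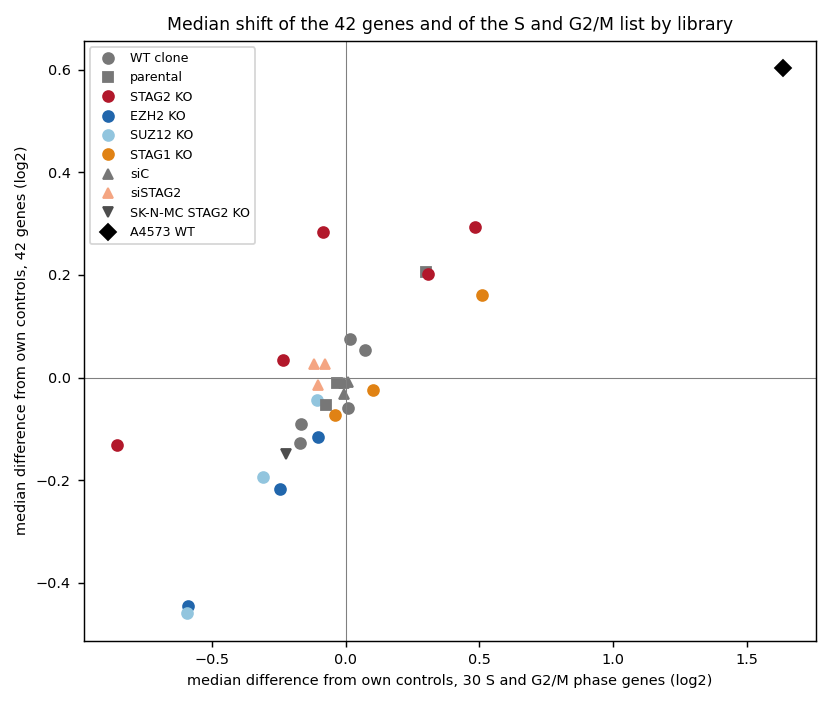
Median log2 difference from the controls of the same experiment, in each library, for the 42 genes and for 30 S and G2/M phase genes. Each point is 1 library.

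The plot of median differences shows both sets in each library. In experiment 1 the 2 STAG2 KO libraries had medians of 0.20 and 0.29 for the 42 and 0.31 and 0.48 for the S and G2/M phase genes on the log2 scale. The parental control stood at 0.21 and 0.30, level with the lower of them, and the 2 WT clones at −0.13 and −0.09 for the 42 and −0.17 each for the others. In STAG2 KO clones 3, 5 and 2 the repair genes were at 0.03, −0.13 and 0.28 and the others at −0.24, −0.86 and −0.09. Clone 5 had the lowest median of both sets in its group. EZH2 KO libraries were at −0.22, −0.44 and −0.12 for the 42 and −0.25, −0.59 and −0.10 for the cell cycle genes, and SUZ12 KO at −0.19, −0.46 and −0.04 against −0.31, −0.59 and −0.11. Within each PRC2 knockout the 2 sets ranked the 3 clones alike. They did so too within STAG2 KO of each experiment and the libraries labelled STAG1 KO, but not within siSTAG2. The libraries labelled STAG1 KO were at 0.16, −0.07 and −0.02 against 0.51, −0.04 and 0.10. With siSTAG2 the 42 were at 0.03, −0.02 and 0.03 and the cell cycle genes at −0.08, −0.10 and −0.12, so only the latter were all negative.

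Another 28 homologous recombination genes were looked at beside the 42, and the 2 sets were not tested against each other. In STAG2 KO their median log2 fold change was 0.06, with RMI2 lower (−0.51, edgeR adjusted p 0.0132), and in SUZ12 KO −0.14, with BABAM1 (−0.51) and RPA1 (−0.69) lower at edgeR adjusted p of 0.0251 and 0.0333. In EZH2 KO, at a median of −0.18, edgeR called 0, with 4 at an unadjusted p under 0.05, and in the libraries labelled STAG1 KO, at 0.12, it called 0, with 3. Against the PRC2 knockouts STAG2 KO had SPIDR at 0.51, MDC1 at −0.45 and BRCC3 at 0.82 on the log2 scale (edgeR adjusted p 0.00526, 0.00976 and 0.0414), and MCM9 differed between the STAG2 and STAG1 effects (−0.79, 0.0425). With siSTAG2 RMI2 (−0.40) and SWI5 (−0.29) were lower and BRCC3 (0.29) higher, at limma adjusted p of 0.00154, 0.0199 and 0.00636, so RMI2 was lower in both STAG2 arms. In SK-N-MC DMC1, MCM9 and GEN1 were past 1.5-fold at log2 ratios of −1.52, −0.67 and −0.62, beside 37.4% of all genes. In A4573 18 were, beside 41.8% of all genes, led by DNA2 at 1.48, RPA1 at 1.21 and SFR1 at 1.13.

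Of 18 checkpoint and fork genes TIMELESS was lower in STAG2 KO (log2 fold change −0.38, edgeR adjusted p 0.0159) and in EZH2 KO (−0.58, edgeR adjusted p 0.00546). RAD9A (−0.86), RECQL4 (−0.61) and ETAA1 (0.42) differed between STAG2 KO and the PRC2 knockouts at edgeR adjusted p of 0.00144, 0.0372 and 0.0351, and CDC25C (−0.37) and HUS1 (0.27) with siSTAG2 at limma adjusted p of 0.004 and 0.0295. In SUZ12 KO edgeR called 0, with 2 at an unadjusted p under 0.05. In A4573 9 were higher past 1.5-fold, beside 17.0% of all genes, led by CLSPN at a log2 ratio of 2.52, CDC25C at 1.46 and WEE1 at 1.31. In SK-N-MC 0 were, beside 17.3% of all genes. Of 12 partners of the Fanconi pathway ERCC4 was higher in STAG2 KO (0.35, edgeR adjusted p 0.0456) and lower with siSTAG2 (−0.51, limma adjusted p 0.00473), opposite in the 2 STAG2 arms. Against the PRC2 knockouts ERCC4 (0.55) and WDR48 (0.31) were higher in STAG2 KO at edgeR adjusted p of 0.00386 and 0.0388. Past 1.5-fold were FAAP24 at 0.87 and UBE2T at −0.82 in SK-N-MC, and CENPS at 1.75, CENPX at 1.40 and UBE2T at 1.29 among 6 in A4573. Of all genes 37.4% were past it in SK-N-MC and 41.8% in A4573.

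Of 13 end joining genes XRCC1 was lower and SHLD2 higher in both STAG2 arms. In STAG2 KO their log2 fold changes were −0.55 and 0.53 (edgeR adjusted p 0.0171 and 0.0244) and with siSTAG2 −0.36 and 0.43 (limma adjusted p 0.00274 and 0.000176), where LIG4 was higher too (0.95, 0.00805). XRCC6 was lower in SUZ12 KO (−0.58, edgeR adjusted p 0.0175), POLM lower in STAG2 KO against the PRC2 knockouts (−0.87, 0.0398) and LIG4 higher in WT clones than in parental cells (0.60, 0.0146). In SK-N-MC XRCC6 at 0.91, SHLD1 at −0.78 and PRKDC at −0.62 were past 1.5-fold, beside 37.4% of all genes. In A4573 4 were, beside 41.8% of all genes, led by XRCC5 at 1.05, DCLRE1C at 1.05 and XRCC1 at 0.84. Among mismatch repair genes MLH3 was higher in SUZ12 KO (log2 fold change 1.22, edgeR adjusted p 0.0272) and PMS1 was higher in STAG2 KO against the PRC2 knockouts (0.48, edgeR adjusted p 0.0319). In SK-N-MC MLH3 was at −1.42 and in A4573 MSH3 was at 0.68 on the log2 scale.

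Of 18 target genes of p53 22.2% (4) were called in each of STAG2 KO, EZH2 KO and SUZ12 KO, beside 12.4%, 15.7% and 20.6% of all genes, so in SUZ12 KO the share was near that of all genes. EZH2 KO had 4 higher, led by CDKN1A at 2.86, BTG2 at 1.87 and GADD45A at 0.99 on the log2 scale (edgeR adjusted p 0.00135, 0.00135 and 0.00424), with a median of 0.71. SUZ12 KO had 3 higher and 1 lower, led by GADD45A at 1.17, CDKN1A at 2.35 and BTG2 at 1.54 (edgeR adjusted p 0.0012, 0.00251 and 0.00263). STAG2 KO had 3 lower and 1 higher, led by PHLDA3 (−1.38), FDXR (−1.22) and ZMAT3 (0.91) at edgeR adjusted p of 0.000816, 0.00896 and 0.0118. The libraries labelled STAG1 KO had SESN1 at 1.49 and CDKN1A at 1.999 (edgeR adjusted p 0.0181 and 0.0405). The PRC2 knockouts, in which the repair genes had negative medians, thus had more CDKN1A transcript, whose product halts the cell cycle. So did the libraries labelled STAG1 KO, where the median of the repair genes ran from −0.06 to 0.07 with each library left out. A link between CDKN1A and the repair genes was not tested. Against the PRC2 knockouts STAG2 KO had BTG2 at −1.98, CDKN1A at −2.90 and PHLDA3 at −1.6999 (edgeR adjusted p 0.000302, 0.000414 and 0.000556). PHLDA3 (−1.98, edgeR adjusted p 0.00229) and SESN1 (−1.48, 0.00451) differed between the STAG2 and STAG1 effects. WT clones had more CDKN1A (0.95) and FDXR (0.51) than parental cells at edgeR adjusted p of 0.00369 and 0.0284. With siSTAG2 AEN (0.38), FDXR (−0.58) and DDB2 (−0.44) led 7 called genes (38.9%, beside 20.5% of all genes) at limma adjusted p of 0.000172, 0.000224 and 0.000301. In SK-N-MC FAS at −2.93, PHLDA3 at −2.61 and BBC3 at 1.86 led 7 past 1.5-fold (38.9%, beside 37.4% of all genes). In A4573 SESN2 at −2.40, GADD45A at −2.21 and FAS at −1.94 led 10. These were 58.8% of the listed genes with enough counts in that pair, beside 41.8% of all genes.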

How the data were processed

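RNA sequencing was used from 32 libraries of A673, A4573 and SK-N-MC cells. Per the submitters' processing notes, reads were aligned to hg38 with TopHat2 2.0.0 and Bowtie 0.12.7, with SAMtools 0.1.16, FastQC and DESeq2 also named. The libraries were oligo-dT primed and made by template switching without keeping the strand. The counting program and gene annotation were not given in the sources used here. The authors deposited gene counts for the 22 A673 clone and 4 pair libraries. For the knockdown the authors deposited a normalised signal for each gene, whose values lay within 0.01 of a whole read after division by a factor for each library (100% of values). The members and lists were chosen with earlier results of these data known.

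Clones were compared with edgeR 4.0.16 under R 4.3.3 (quasi-likelihood test, TMM factors, default filter on low counts), with a term for the experiment where 2 or more entered. The 12 libraries of experiment 2 were fitted together, which assumes 1 spread for all groups. The knockdown was compared with limma 3.58.1 on log2 of the value plus 1, for genes with a mean of at least 10, with a trend. Adjustment was by Benjamini and Hochberg over all genes tested, and called means under 0.05. Pairs were described by log2 ratios of CPM (TMM, prior count 2, at least 10 counts in the pair) and a limit of 1.5-fold. Alternatives were DESeq2 1.42.0, RLE factors, no filter, each library left out, WT clones as the only controls, each experiment alone, no experiment term, 2-group fits, other pseudocounts, a replicate block and edgeR on recovered reads. Pairs had library size alone, a prior count of 10 and a minimum of 50 counts as alternatives.

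Members called in a replicated comparison were named with their fold. Values in every library were given for up to 4 called members with the lowest adjusted p in each arm and for BRCA1, BRCA2, ATM, ATR, CHEK1 and PARP1. From each pathway list up to 3 called genes were named. Marker lists for Ewing sarcoma cells, fibroblasts, immune, epithelial and endothelial cells were summed by library. The columns of STAG2 KO in experiment 1 and of the libraries labelled STAG1 KO could be matched to their group only, so no clone numbers are given for them. Gene positions were from GENCODE on hg38. The tests were tested on simulated data, where they recovered nearly all large changes at a low spread, while at a higher spread all but that of STAG2 KO missed many changes of 2-fold. A gene that was not called may therefore have changed. The easier setting was added after the other had been run.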

Additional observations from a re-analysis of the deposited data

Results flagged for a closer look

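MRE11 was the 1 gene of the 42 past 1.5-fold in opposite directions in the 2 pairs, at a log2 ratio without over with STAG2 of −0.59 in SK-N-MC and 0.67 in A4573. The 2 ratios were 1.25 apart on the log2 scale, and this difference was not tested, as each pair is 1 library against 1. In SK-N-MC MRE11 was barely past 1.5-fold, and with library size alone or a prior count of 10 it was not. A Dixon test looked for single outlying values of 11 genes in the STAG2-proficient and the STAG2 KO libraries of experiments 1 and 2 only, and no other group was tested. In 0 of 22 groups was a library past the critical value, where chance alone would pass about 1 in 20 if the experiments did not differ. The groups pooled the 2 experiments without removing the difference between them. PARP1, for example, ran from 356 to 610 CPM over the STAG2-proficient libraries. Such a difference widens the range, so the test cannot exclude an outlying library within an experiment.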

How the results depend on the processing

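The numbers of members called depended on the libraries and the test, and the cause was not tested. In STAG2 KO the 1 called became 6 with DESeq2, 0 to 9 with each library left out, 2 with WT clones as the only controls, 5 with experiment 1 alone, 0 with experiment 2 alone and 0 when the 2 WT clones of experiment 1 were summed. In EZH2 KO the 2 called became 1 without a filter, 1 with any library left out, 1 with WT clones as the only controls and 4 in the 2-group fit. In SUZ12 KO the 1 called became 2 with DESeq2, 1 to 3 with libraries left out and 2 in the 2-group fit. In the libraries labelled STAG1 KO the 0 called by edgeR became 2 with DESeq2. STAG2 KO against the PRC2 knockouts gave 4 to 17 with libraries left out in place of 8, the difference of the STAG2 and STAG1 effects 0 to 1, WT clones against parental cells 1 to 4 and siSTAG2 1 to 4. The summed WT clone libraries and all alternatives of the 4 direct comparisons were chosen after the data had been seen.

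With each library left out the median log2 fold change of the members ran from 0.03 to 0.14 in STAG2 KO, −0.33 to −0.14 in EZH2 KO, −0.28 to −0.12 in SUZ12 KO, −0.06 to 0.07 in the libraries labelled STAG1 KO and −0.02 to 0.02 with siSTAG2.

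Some log2 fold changes that were not called changed sign. In STAG2 KO ATM was at −0.0411 in experiment 1 alone, and BRCA1, CHEK1 and PARP1 were at −0.0117, −0.0486 and −0.14 in experiment 2 alone. With each library left out BRCA2 ran from −0.18 to 0.0112 in EZH2 KO. In the libraries labelled STAG1 KO BRCA2 ran from −0.0682 to 0.26, CHEK1 from −0.0501 to 0.24 and PARP1 from −0.0773 to 0.12. With siSTAG2 ATR ran from −0.11 to 0.0414, with 0.0293 without siSTAG2 3, and PARP1 from −0.00708 to 0.11.

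With the replicate number as a block, siSTAG2 still had 1 member called, among 2881 genes in place of 2476. The pairing check correlated deviations of libraries with the same number, at 0.0257, 0.0372 and 0.00402, so pairing was not seen. In the pairs SK-N-MC had 7 or 8 members past 1.5-fold, MRE11 dropping with library size alone and with a prior count of 10, and A4573 had 22 or 23, WRN being added with library size alone.

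The limits are these. Each arm had 1 to 5 libraries, and clone and knockout cannot be told apart where few clones were seen. STAG2 KO clone 5 moved many counts. The library with STAG1 at 61.9 CPM went against its label in transcript, and protein was not measured in these data. Controls mixed WT clones and parental cells, and EZH2 KO and SUZ12 KO shared theirs. Pairs had no replicates. Transcript levels say nothing of protein or of repair itself. No treatment that damages DNA was among these libraries.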
